A study of Sparus aurata with 9 samples.

Results

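Creatine kinase was described in white skeletal muscle of gilthead seabream through the 17 gene models, of 61849 in the count tables, whose description starts with creatine kinase. The 9 fish sequenced were bought from one commercial farm, and no genetic change or drug is part of the design. The controls were 3 fish kept at minimal flow for 8 months, and the swimming fish were 3 kept at 1 body length per second (BL s-1) and 3 kept at 2 BL s-1 over the same 8 months. Each group came from 1 tank, so that flow and tank cannot be told apart, and the fish were chosen to be of similar size with normal morphology. The values are fragment counts per gene model and fish, with totals of 3660245 to 5267310 counts per fish, and the question was how the creatine kinase isoforms were balanced at the 3 flow regimes.

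Creatine kinase moves a phosphate group between ATP and creatine, so that phosphocreatine can rebuild ATP within a contracting fibre. In vertebrates the M-type enzyme is the cytosolic form of skeletal muscle and is partly bound at the M-band of the sarcomere, and the B-type is the cytosolic form best known from brain. The S-type (sarcomeric) and U-type (ubiquitous) enzymes lie in the mitochondrial intermembrane space, where they charge creatine with ATP made by oxidative phosphorylation. White muscle of fish is fast, glycolytic muscle recruited for bursts and faster swimming.

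Muscle creatine kinase was among the most abundant messages of the tissue. The 17 gene models together took 8.72% of all counts of the 9 fish. Counts were found for 11 of the 17, and the other 6 had none in any fish, while 14465 of the 61849 gene models of the whole table were detected. The 2 gene models described as M-type, Sa_49005.2.1 and Sa_22826.1.1, took 98.6% of the creatine kinase counts. With the 2 S-type mitochondrial-like models Sa_20982.1.1 and Sa_35667.1.1, the share was 99.998%, and the other 7 detected models had 80 counts between them over all 9 fish. Shares are of counts and not of transcripts, because longer transcripts collect more fragments and lengths were not used here.

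The order of the 4 abundant models was the same in every fish. Sa_49005.2.1 ranked 3 or 4 among all gene models of a fish and Sa_22826.1.1 ranked 4 to 6. The S-type model Sa_20982.1.1 ranked 63 to 102 and Sa_35667.1.1 ranked 80 to 125. The rule for reads that match near-identical copies is not stated in the methods or labels, and the split within the M-type pair and within the S-type pair is uncertain.

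Fast muscle markers gave 149068 to 191292 summed CPM (counts scaled to equal library totals) per fish, with a count in 55 of 89 gene models, so the markers of the labelled tissue were present. Some of the 9 fish stood apart. Fish 3 at 1 BL s-1 lay at 53.6 on the first principal component, against -15.04 to -0.41 in the other 8 fish. On the second component, control fish 2 lay at 35.8, against -16.8 to 6.29 in the other 8 fish. The components were taken over the 4241 gene models that passed a low-count filter. Fish 2 at 2 BL s-1 had 150 summed CPM in the slow or red muscle markers (7 of 20 with a count), against 1.09 to 10.5 in the other 8 fish. Its slow troponin Sa_2545.1.1 had 364 counts, against 3 to 36 in the others.

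At 2 BL s-1 the M-type models stood at 0.781 and 0.792 of the control level, and 1 of the pair passed the unadjusted threshold. Normalized counts (counts divided by an edgeR scale factor for each library, by its TMM method) of Sa_49005.2.1 were 203393, 156773 and 154349 in the 3 fish at 2 BL s-1, against 244250, 192238 and 224279 in the controls. The first fish at 2 BL s-1 lay above the second control, so the groups overlapped, while the other 2 fish lay below all controls. The fold was 0.781, or -0.36 on the log2 scale (SE 0.15, 95% interval -0.69 to -0.02), with an unadjusted p of 0.0407 and an adjusted p of 0.996 by edgeR's quasi-likelihood test.

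The second M-type model, Sa_22826.1.1, had 187408, 145817 and 126588 normalized counts at 2 BL s-1, against 212911, 187714 and 182258 in the controls. Again the first fish at 2 BL s-1 lay within the controls and the other 2 lay below them. The fold was 0.792, or -0.34 on the log2 scale (SE 0.16, 95% interval -0.69 to 0.02), which missed the threshold (unadjusted p = 0.06, adjusted p = 0.996, edgeR). It passed the unadjusted threshold in 4 of 13 alternatives, among them no low-count filter (-0.35), limma-trend (-0.35) and the fit without fish 1 at 2 BL s-1 (-0.51). The 2 estimates had nearly the same size and error, and p lay on either side of 0.05.

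Of the 4 creatine kinase models that passed the low-count filter, 1 was called at 2 BL s-1 at an unadjusted p of 0.05, against a background of 4.46% of the 3947 gene models tested. The call did not hold under every setting. It was lost with DESeq2 (log2 fold change -0.36), with all 9 fish in one fit (-0.36), with total counts in place of TMM (-0.13), and without fish 2 (-0.30) or fish 3 (-0.29) at 2 BL s-1 or control fish 1 (-0.29) or 3 (-0.34). The call was kept without control fish 2 (-0.45) or without fish 1 at 2 BL s-1 (-0.50). Total counts moved the median of all tested models to 0.23, and relative to that median the model stood at -0.36, as with TMM. As TMM sets the median near 0, this step nearly repeats its scaling and is no separate check.

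**Figure D1:**
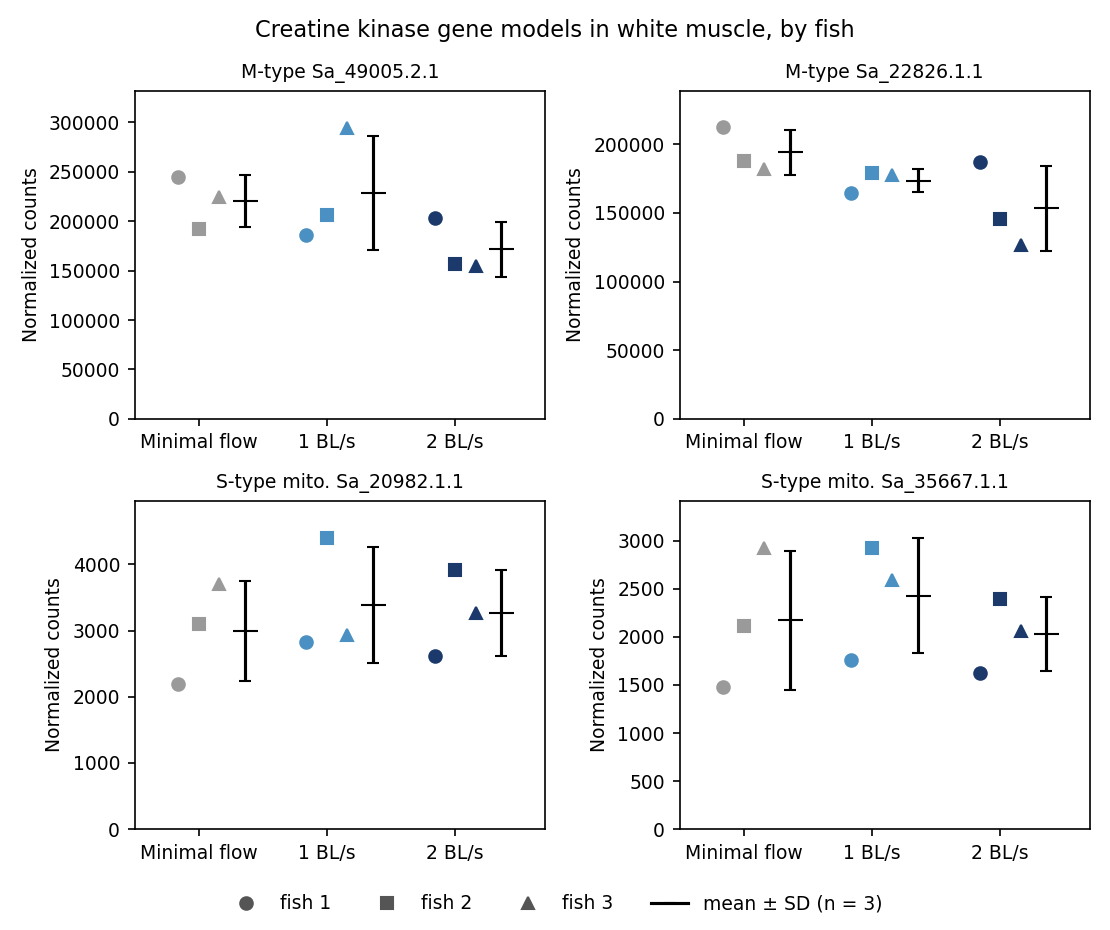
Normalized counts (linear axis from 0) of the 4 abundant creatine kinase gene models in each of the 9 fish, by flow regime. Symbols are fish 1, 2 and 3 of a group, and the black bar is the mean ± SD (n = 3). For both M-type models, fish 2 and 3 at 2 BL s-1 lie below all controls, and Sa_49005.2.1 is highest in fish 3 at 1 BL s-1, at 294369.

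Other abundant gene models had values like those of the M-type pair. Of the 20 most abundant gene models over all fish, which include both M-type models, 18 had a log2 fold change below 0 at 2 BL s-1 vs. controls and 5 were called lower, against 4.46% of all tested models called in either direction. The 18 include both M-type models, and the 5 include Sa_49005.2.1. The median of the 20 was -0.29, and -0.07 with total counts, where the median of all tested models was 0.23. These 20 took 74.1% of the counts of a fish at 2 BL s-1 and 75.5% in controls. The fast muscle markers had a median of -0.31 (9 of 32 tested models lower and none higher, beside the same 4.46%), against -0.0004 over all tested models. Because the tissue was measured in bulk, fewer fibres of a type and less RNA per fibre cannot be told apart.

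The mitochondrial S-type models at 2 BL s-1 lay within the range of the controls or close to it. Sa_20982.1.1 had 2623, 3923 and 3272 normalized counts at 2 BL s-1, against 2192, 3101 and 3700 in the controls, with the groups interleaved. Its log2 fold change was 0.13 (SE 0.22, 95% interval -0.37 to 0.63). Its value was -0.026 without fish 2 at 2 BL s-1, the fish with slow muscle markers, and -0.061 without control fish 1.

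Sa_35667.1.1 had 1624, 2390 and 2065 normalized counts at 2 BL s-1, against 1475, 2116 and 2924 in the controls. The widest values were both among the controls. The log2 fold change was -0.10 (SE 0.25, 95% interval -0.66 to 0.47). Neither S-type model passed the threshold. Whether the slow muscle RNA in fish 2 contributed to its S-type counts was not tested.

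At 1 BL s-1 no creatine kinase model was called, 0 of 4 at an unadjusted p of 0.05, against a background of 4.02% of 3902 gene models. Sa_49005.2.1 had 186153, 205893 and 294369 normalized counts, against 244250, 192238 and 224279 in the controls. Fish 3 was the highest of all 9 fish and fish 1 was below all controls. The mean was 228805 ± 57632 at 1 BL s-1 and 220256 ± 26239 in controls (SD, n = 3 each), a log2 fold change of 0.05 (SE 0.21, 95% interval -0.43 to 0.53), and -0.17 without fish 3.

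Sa_22826.1.1 was the only one of the 4 models whose groups did not overlap at 1 BL s-1. It had 164337, 179027 and 177503 normalized counts at 1 BL s-1, against 212911, 187714 and 182258 in the controls. Every swimming fish lay below every control, by a small margin, a separation that 11% of the 3902 gene models had in one direction or the other. The log2 fold change was -0.17 (SE 0.16, 95% interval -0.54 to 0.20, unadjusted p = 0.33 and adjusted p = 0.966, edgeR). As a percentage of all counts the groups overlapped, with 3.28 to 4.14% at 1 BL s-1 and 3.91 to 4.35% in controls.

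The S-type models were variable at 1 BL s-1. Sa_20982.1.1 had 2821, 4402 and 2936 normalized counts at 1 BL s-1, against 2192, 3101 and 3700 in the controls, a log2 fold change of 0.17 (SE 0.26). Sa_35667.1.1 had 1764, 2930 and 2589 normalized counts at 1 BL s-1, against 1475, 2116 and 2924 in the controls, a log2 fold change of 0.15 (SE 0.29). In both, fish 2 was the highest at 1 BL s-1 and control fish 1 the lowest of all 9 fish. Both values lay just below 0 when either of these fish was left out.

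**Figure D2:**
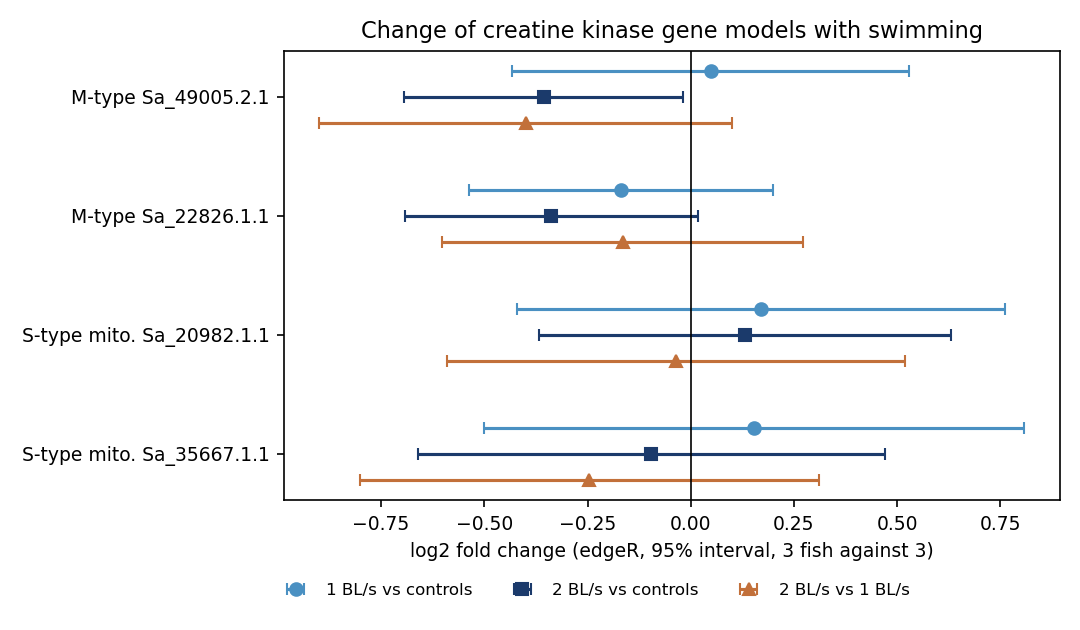
Log2 fold changes of the 4 abundant creatine kinase gene models in the 3 comparisons, with 95% intervals from edgeR (3 fish against 3 fish). Only the interval of Sa_49005.2.1 at 2 BL s-1 vs. controls, -0.69 to -0.02, lies clear of 0.

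Between the swimming groups none of the 4 models was called, against a background of 4.24% of 3963 gene models, and in all 4 the groups overlapped, where 10.9% of gene models did not. Sa_49005.2.1 averaged 171505 ± 27642 normalized counts at 2 BL s-1 and 228805 ± 57632 at 1 BL s-1 (SD, n = 3 each). The difference was -0.40 on the log2 scale (SE 0.22, 95% interval -0.90 to 0.10, unadjusted p = 0.104 and adjusted p = 0.897, edgeR). Sa_22826.1.1 averaged 153271 ± 31088 at 2 BL s-1 and 173623 ± 8077 at 1 BL s-1, with a log2 fold change of -0.17 (SE 0.19). The S-type models differed by -0.04 (SE 0.25) and -0.25 (SE 0.25). The 2 BL s-1 effect on Sa_49005.2.1 was therefore not shown to differ from the 1 BL s-1 effect. No creatine kinase model passed an adjusted threshold of 0.05 in any of the 3 comparisons, with edgeR, DESeq2 or limma, and the lowest adjusted p over all settings was 0.593.

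The balance between isoforms was read within each fish. Shares within creatine kinase and ratios of 2 models do not depend on library scaling. A percentage of all counts does, as it is set by the library total. The percentage of all counts taken by creatine kinase was 9.41, 8.82 and 8.86% at minimal flow, 8.47, 9.07 and 8.83% at 1 BL s-1, and 9.09, 8.47 and 7.32% at 2 BL s-1. The lowest value was that of fish 3 at 2 BL s-1, and the groups overlapped. The 95% Wilson intervals of these shares were 0.0485 to 0.057 percentage points wide and cover counting error only. The spread between fish of a group was many times wider (SD 0.30 to 0.90).

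The mitochondrial share of creatine kinase counts was small and varied widely among fish. The S-type models held 0.796, 1.35 and 1.60% of creatine kinase counts at minimal flow, 1.29, 1.87 and 1.16% at 1 BL s-1, and 1.08, 2.04 and 1.86% at 2 BL s-1. The means were 1.25 ± 0.41% at minimal flow, 1.44 ± 0.38% at 1 BL s-1 and 1.66 ± 0.52% at 2 BL s-1 (SD, n = 3 each), and the groups overlapped. The highest share was in fish 2 at 2 BL s-1, which also had the highest slow muscle markers, and the lowest was in control fish 1. Expressed the other way, there were 61.4 to 125 M-type counts per S-type count at minimal flow, 52.5 to 85.4 at 1 BL s-1 and 47.9 to 92.0 at 2 BL s-1.

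The ratio within the M-type pair was close to even in 8 fish. Sa_49005.2.1 had 1.15, 1.02 and 1.23 counts per count of Sa_22826.1.1 at minimal flow, 1.13, 1.15 and 1.66 at 1 BL s-1, and 1.09, 1.08 and 1.22 at 2 BL s-1. The value of 1.66 belonged to fish 3 at 1 BL s-1, the same fish that stood apart on the first principal component. On the log2 scale it was 0.73, against 0.03 to 0.30 in the other 8 fish. In that fish Sa_49005.2.1 took 5.44% of all counts, the highest of the 9, and Sa_22826.1.1 took 3.28%, the second lowest. Its hemoglobin models also had 173 summed CPM, against 26.9 to 91.5 in the others, and its TMM factor was the lowest at 0.811.

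The ratio within the S-type pair did not overlap between 2 BL s-1 and the controls. The levels of single gene models separated in this way in 9.75% of the 3947 tested, and no such share was computed for ratios. The split of reads within the pair is uncertain. Sa_20982.1.1 had 1.61, 1.64 and 1.58 counts per count of Sa_35667.1.1 at 2 BL s-1, against 1.49, 1.47 and 1.27 in the controls, and all 3 swimming fish lay above all controls. At 1 BL s-1 the ratios were 1.60, 1.50 and 1.13, spanning both groups, and the lowest was again that of fish 3. The mean log2 ratio was 0.69 ± 0.03 at 2 BL s-1 and 0.49 ± 0.13 in controls (SD, n = 3 each), and it was not tested further, as 1 of several ratios looked at.

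**Figure D3:**
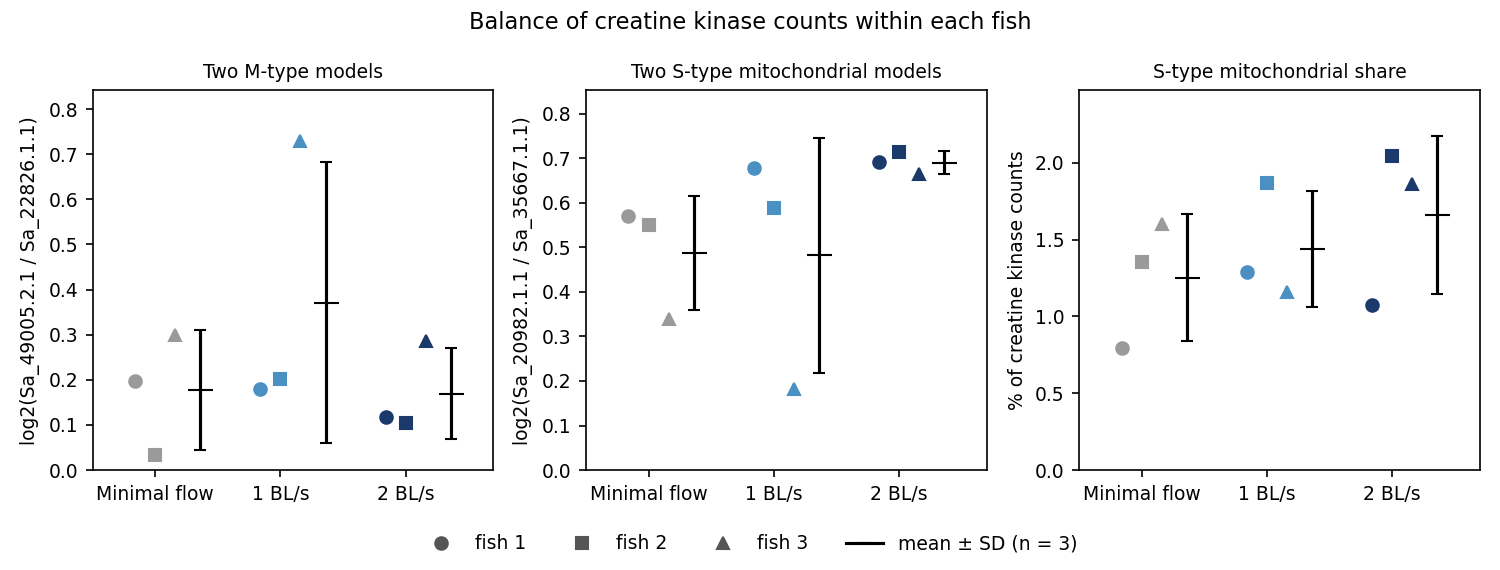
Balance of creatine kinase counts within each fish: the log2 ratio of the M-type models, the log2 ratio of the S-type mitochondrial models, and the S-type share in percent of creatine kinase counts. Symbols are fish 1, 2 and 3 of a group and the black bar is the mean ± SD (n = 3). Fish 3 at 1 BL s-1 is highest in the first panel (0.73) and lowest in the second (0.18), and all fish at 2 BL s-1 lie above all controls in the second.

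Within groups, the M-type models varied less than the median gene model, a comparison that was not matched for abundance. The coefficient of variation of Sa_22826.1.1 was 8.42% at minimal flow, 4.65% at 1 BL s-1 and 20.3% at 2 BL s-1, where the median gene model had 26.6, 29.7 and 24.4%. That of Sa_49005.2.1 was 11.9, 25.2 and 16.1% for the same groups. The S-type models ranged over 19.0 to 33.4%. The 4.65% of Sa_22826.1.1 depends on the scaling, as its percentage of all counts at 1 BL s-1 was 3.92, 4.14 and 3.28% by fish. Over the 9 fish the log2 levels of the M-type pair correlated with r = 0.73 and those of the S-type pair with r = 0.87, and each M-type model correlated with each S-type model at -0.44 to 0.09. These describe 9 libraries that share their scaling.

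The gene models most like each member over the 9 fish were looked up among 4240 others, by Pearson correlation of log2 levels. For Sa_49005.2.1 they were Myosin heavy fast skeletal muscle (Sa_45011.1.1) and parvalbumin alpha (Sa_5750.8.1), a calcium buffer of fast fibres, both at r = 0.96, followed closely by the microtubule affinity-regulating kinase 4 (Sa_50943.1.1), the guanine nucleotide-binding subunit beta-2-like 1 (Sa_41600.5.1) and the ribosomal S19 (Sa_29119.3.1), each at r = 0.95. For Sa_22826.1.1 they were the phosphatase PP1-beta catalytic subunit (Sa_5091.1.1, r = 0.95) and a mitochondrial phosphatase (Sa_23421.5.1, r = 0.94). Next came the ral GTPase-activating subunit alpha-2 (Sa_12396.9.1, r = 0.90), the ubiquitin-fold modifier-conjugating enzyme 1 (Sa_42250.2.1, r = 0.89) and the DNA polymerase zeta catalytic subunit (Sa_22073.2.1, r = 0.89). Among the 5 nearest of both S-type models were popeye domain-containing 3 (Sa_49302.1.1), at r = 0.94 with Sa_20982.1.1 and 0.92 with Sa_35667.1.1, and bestrophin-3 (Sa_17759.1.1), at 0.91 and 0.87. Fish 3 at 1 BL s-1, which stood apart on the first principal component, was the highest in Sa_49005.2.1. A fish of this kind can weigh heavily in r over 9 fish, and the correlations were not computed without it. The highest of 4240 values of r over 9 fish can also be large without a relation.

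The B-type had few counts, and more of them at 1 BL s-1 than in the other groups. Sa_17527.8.2 had 6, 3 and 2 counts at minimal flow, 18, 12 and 4 at 1 BL s-1, and 4, 2 and 6 at 2 BL s-1. Fish 3 at 1 BL s-1 lay below control fish 1, so the groups overlapped. Per total count the 34 counts at 1 BL s-1 were 3.28 times the 11 of the controls (95% counting interval 1.62 to 7.17), and the 12 counts at 2 BL s-1 were 1.23 times (0.498 to 3.09) those of the controls and 0.376 times (0.178 to 0.745) those at 1 BL s-1. These intervals cover counting error only and not the spread between fish.

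Sa_17527.8.2 did not pass the low-count filter with 6 fish. Without the filter its log2 fold change at 1 BL s-1 vs. controls was 1.56 (SE 0.72, unadjusted p = 0.0302, adjusted p = 0.777, edgeR). With 1 fish fewer it passed the filter in 4 cases, where the value was 1.89 without fish 3 at 1 BL s-1, 2.13 without control fish 1, 1.51 without control fish 2 and 1.22 without control fish 3. The first 2 of these passed the unadjusted threshold of edgeR and the other 2 did not (adjusted p of 0.908 or above in all 4). Without fish 1 or fish 2 at 1 BL s-1, where its counts were highest, it did not pass the filter. In these 4 cases it was thus tested only through the group where it was high. The fit without the filter rests on 34 counts against 11, of which 18 and 12 were in fish 1 and fish 2 at 1 BL s-1. None of these p-values is taken as support for a difference. Sa_17527.8.1, a B-type isoform X1 that shares all but the last number of the identifier, had 10 counts over the 9 fish, of which 5 were in fish 1 at 2 BL s-1.

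The remaining detected models were at the edge of detection. The U-type mitochondrial models had 8 counts in all, of which Sa_44058.1.1 had 5, Sa_27285.1.1 had 2 and Sa_42474.1.2 had 1. The M-type-like models Sa_12155.2.1 and Sa_12155.1.1 had 3 and 2 counts, and all 5 were in fish 2 at 2 BL s-1, the fish with slow muscle markers. Whether those 5 counts came from the slow muscle RNA was not tested. A change of these models with flow was not detectable at this depth.

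The 6 models without a count were 3 B-type models (Sa_23807.1.1, Sa_23807.1.2 and Sa_23807.1.3), 2 S-type mitochondrial models (Sa_51133.1.1 and Sa_9297.1.1) and the U-type Sa_42474.1.1. A count of 0 over the 9 fish allows a level of up to 0.0755 CPM, by the floor of 3 counts. Of these 6, 4 share all but the last number of their identifier with another model. Among all gene models, 92.4% of the 43386 that share an identifier in this way had no count, against 39.6% of the 18463 that do not. Whether the counting of shared reads set these zeros was not tested. Among the creatine kinase models the numbers without a count were 4 of 7 and 2 of 10.

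Creatine itself is made from guanidinoacetate by guanidinoacetate N-methyltransferase and is carried into cells by the creatine transporter. The methyltransferase Sa_26858.1.1 was the only tested model of the 8 in the creatine supply list, and it fell at 2 BL s-1 by the unadjusted threshold. It had 1394, 1113 and 1311 normalized counts at 2 BL s-1, against 2786, 1636 and 2046 in the controls, and every swimming fish lay below every control, which 9.75% of the 3947 tested gene models showed in one direction or the other. The fold was 0.593, or -0.75 on the log2 scale (SE 0.21, unadjusted p = 0.00555 and adjusted p = 0.996, edgeR), and the model stayed past the unadjusted threshold in all 13 alternatives. At 1 BL s-1 the log2 fold change was -0.34 (SE 0.28) and not called, with fish 3 at 2330 normalized counts, within the controls, and the other 2 fish below them. The 7 creatine transporter models had 2 counts in all, both in fish 1 at 2 BL s-1. All 7 share all but the last number of their identifier with another model, as do gene models of which 92.4% had no count. Whether the counting of shared reads set these low counts was not tested.

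Enzymes that act beside creatine kinase on the adenine nucleotides were mostly not called. Of 5 tested models of the adenine nucleotide list at 2 BL s-1, 1 was lower and none higher (median 0.01, background 4.46% called), and at 1 BL s-1 0 of 4 were called (median 0.03, background 4.02%). The one was the mitochondrial adenylate kinase Sa_255.1.1, which balances ATP, ADP and AMP, with 50.03, 63.8 and 55.4 normalized counts at 2 BL s-1, against 64.0, 95.7 and 130 in the controls. Its log2 fold change was -0.77 (SE 0.29, unadjusted p = 0.0249 and adjusted p = 0.996, edgeR), and it was no longer called with total counts (-0.55), without fish 1 (-0.70) or fish 3 (-0.77) at 2 BL s-1, or without control fish 3 (-0.50).

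The M-band, where M-type creatine kinase is partly anchored, was represented by 3 tested models. At 1 BL s-1, 1 of the 3 was called lower and 2 were not called, against a background of 4.02%. Myomesin-2-like Sa_177.3.1, a crosslinker of thick filaments, had 13225, 13607 and 10315 normalized counts at 1 BL s-1, against 16407, 18998 and 17885 in the controls, with no overlap, as in 11% of the 3902 tested gene models. Its log2 fold change was -0.53 (SE 0.19, unadjusted p = 0.0195 and adjusted p = 0.966, edgeR), and it missed the threshold with total counts (-0.49) and without control fish 2 (-0.48) or 3 (-0.52). Another myomesin-2-like model, Sa_16594.1.1, was at -0.18 (SE 0.21) at 1 BL s-1, and obscurin 1, Sa_5667.1.1, at -0.22 (SE 0.35). At 2 BL s-1 none of the 3 M-band models was called, against a background of 4.46%. Their median was -0.27, against -0.0004 over all tested models.

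The users and suppliers of phosphocreatine energy were counted in the same way. Of the ATPase and myosin heavy chain models, 7 of 33 were lower and none higher at 2 BL s-1 (median -0.29 against -0.0004 over all tested models, of which 4.46% were called). At 1 BL s-1, 2 of 34 were lower and 1 higher (median -0.12 against -0.01 over all tested models, of which 4.02% were called). The 33 log2 fold changes at 2 BL s-1 ran from -2.21 to 2.39. The fast muscle markers had the same lowest and highest values, and both lists hold the fast skeletal myosin heavy chains. They are thus not separate observations. Of the 3 models with the lowest p over the control comparisons, 2 were among the 7 lower at 2 BL s-1. They were the fast myosin heavy chains Sa_24470.1.1 (-2.21, SE 0.66) and Sa_12984.1.1 (-0.47, SE 0.15), both with an adjusted p of 0.996 in edgeR. At 1 BL s-1 Sa_12984.1.1 was also called lower (-0.53, SE 0.23, adjusted p = 0.966, edgeR), but not with DESeq2 or total counts. Sa_24470.1.1 had 191, 181 and 93.9 normalized counts at 2 BL s-1, against 1591, 201 and 382 in the controls. Without control fish 1 its log2 fold change was -0.91. At 1 BL s-1 Sa_24470.1.1 had 1073, 425 and 1195 normalized counts and was not called against the controls (0.30, SE 0.68). Its value for 2 vs. 1 BL s-1 was -2.51 (SE 0.42, adjusted p = 0.802, edgeR). The other of the 3, myosin heavy partial Sa_35509.2.1, was at 0.11 (SE 0.33) at 2 BL s-1. It was the 1 called higher at 1 BL s-1 (1.19, SE 0.36, adjusted p = 0.966, edgeR). Its normalized counts were 630, 253 and 302 at 1 BL s-1, against 146, 163 and 209 in the controls. Without fish 1 at 1 BL s-1 its log2 fold change was 0.66. Of the mitochondrial translocase, porin and ATP synthase models, 0 of 14 were called at either speed, with medians of 0.02 at 2 BL s-1 and 0.26 at 1 BL s-1. At 2 BL s-1 the M-type values of -0.36 and -0.34 thus lay near the median of the myosin and ATPase models, and the S-type values of 0.13 and -0.10 lay on either side of that of the mitochondrial models.

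**Figure D4:**
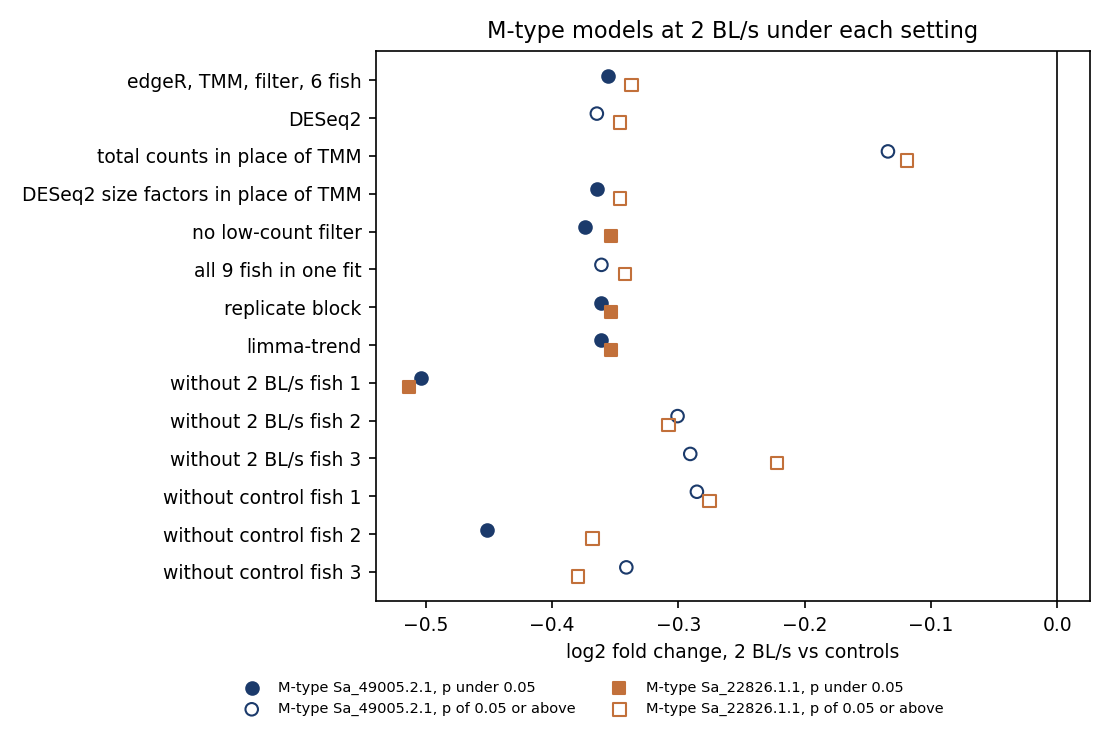
Log2 fold changes of the 2 M-type models at 2 BL s-1 vs. controls under each setting, one row per setting, with the one used in the text at the top. Filled symbols had an unadjusted p under 0.05 and open symbols did not. Values run from -0.50 to -0.13 for Sa_49005.2.1 and from -0.51 to -0.12 for Sa_22826.1.1, and none is above 0.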

How the data were processed

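Groups and fish numbers follow the sample titles. According to the study's methods and the submitters' processing notes, the authors made stranded mRNA libraries, used TopHat2 2.0.13 to place read pairs on the seabream genome, SAMtools 1.2 to drop secondary alignments, and HTSeq 0.6.1p1 to count fragments over each gene model. The count columns deposited are raw and not normalized. Its overlap and strand settings are not stated in those sources. The deposited tables also hold the authors' normalized means, fold changes and p-values, which were not used, and 2 columns with no sample label were left out. A fish had the same counts in both tables that hold it (0 values differed).

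Tests over all gene models ran in R 4.3.3 with edgeR 4.0.16 (quasi-likelihood, TMM, filterByExpr, the 6 fish of a comparison, two-sided), with calls at an unadjusted p of 0.05, the study's threshold, and Benjamini-Hochberg adjusted p beside it. The standard error is the log2 fold change over the square root of F. Per-fish normalized counts were scaled over 9 fish, and log2 levels used a prior count of 2. DESeq2 1.42.0, limma 3.58.1, other scaling, no filter, a replicate block, all 9 fish and leaving out each fish were alternatives. The test was checked on simulated counts. The members and lists were chosen with earlier results of these data known. Members that passed the filter, and of each pathway list up to 3 models with the lowest p over the control comparisons, were those open to naming. P-values measure the spread between fish of single tanks.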

Additional observations from a re-analysis of the deposited data

How the results depend on the processing

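At 2 BL s-1 vs. controls, 1 of 4 tested creatine kinase models was called with 6 fish in edgeR, beside 176 of all 3947 models. The number was 0 with DESeq2 (beside 121 of 3947 models), total counts or all 9 fish in one fit. It was 2 without the low-count filter, with limma-trend or with the replicate block. Without 1 fish it was 0 to 2. Both M-type models stayed below 0 in all 13 settings, and the added member was Sa_22826.1.1 (-0.35 in those 3 settings, and -0.51 without fish 1 at 2 BL s-1). At 1 BL s-1 vs. controls the count was 1 of 9 tested members without the filter, beside 527 of all 13211 models. Without 1 fish it was 0 to 1 of 4 or 5 tested members, beside 125 to 229 of the 4026 to 4307 models tested. For 2 vs. 1 BL s-1 the count was 1 without the filter and 0 to 1 without 1 fish. It was 1 without both fish 3 at 1 BL s-1 and fish 2 at 2 BL s-1, a choice made after seeing the data. In these 2 comparisons the model added was the B-type Sa_17527.8.2. Without 1 fish, it was tested only where fish 1 and 2 at 1 BL s-1, its highest, were both kept. Where no number over all models stands beside a count, that count has no background here. Counts over so few tested models are not read as a result about creatine kinase.

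Signs turned only for values that passed no threshold. With total counts, which moved the median of all tested models to 0.23 in both comparisons with 2 BL s-1, Sa_35667.1.1 was at 0.14 (2 BL s-1 vs. controls) and, for 2 vs. 1 BL s-1, Sa_22826.1.1 at 0.027 and Sa_20982.1.1 at 0.17. Relative to that median they were at -0.08, -0.20 and -0.05, the signs seen with TMM. As TMM sets the median near 0, this step nearly repeats its scaling and is no separate check of the signs. Leaving out 1 fish, the log2 fold changes at 1 BL s-1 vs. controls ran from -0.17 to 0.16 for Sa_49005.2.1, from -0.080 to 0.35 for Sa_20982.1.1 and from -0.052 to 0.43 for Sa_35667.1.1. At 2 BL s-1 vs. controls they ran from -0.061 to 0.31 for Sa_20982.1.1 and from -0.32 to 0.18 for Sa_35667.1.1, and for 2 vs. 1 BL s-1 from -0.20 to 0.18 for Sa_20982.1.1. All 36 alternatives for the shares and the M-type ratio stayed within 1 SD of the group mean, but this is not a test of them. The alternatives left out 1 fish or summed the counts of a group. In groups this small, leaving out 1 fish cannot move the mean by 1 SD, whatever the values. Summed counts use the same fish and are a weak check at best.

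The deviations of fish with the same number were at most weakly correlated (0.02 to 0.18 at 1 BL s-1 vs. controls, 0.02 to 0.06 at 2 BL s-1 vs. controls and -0.03 to 0.14 for 2 vs. 1 BL s-1). In no comparison were all pairs over 0.1, and the numbers are not known to pair fish. The replicate block gave 2 called members at 2 BL s-1 vs. controls, with Sa_49005.2.1 at -0.36 and Sa_22826.1.1 at -0.35. It gave 0 in the other comparisons, at 1 BL s-1 vs. controls 0 of 4 beside 161 of all 3902 models. The 3 fish a group limit the M-type models more than depth does, whereas depth limits the B- and U-type models.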
